A study of Homo sapiens with 24 samples.

Results

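Transcripts of 29 target genes of the transcription factor p53 were followed by total RNA-seq through knockdown of the RNA-binding protein IGF2BP1 in 4 human cancer cell lines. The genes were chosen by symbol from the p53 pathway, and each of the 29 symbols matched 1 of the 58174 genes listed in every line's table. By role they are the feedback regulators MDM2, MDM4 and PPM1D, the cell cycle and growth genes CDKN1A, BTG1, BTG2, CCNG1, CCNG2, GADD45A, PLK2 and PLK3, and the cell death and autophagy genes FAS, TNFRSF10B, AEN, PERP, PHLDA3, TP53I3, TP53INP1, DRAM1 and TRIAP1. The others are the DNA repair and nucleotide supply genes XPC, DDB2, POLH and RRM2B, the metabolic and redox genes SESN1, TIGAR and FDXR, and GDF15 and ZMAT3. Lung cancer cells (A549), ovarian cancer cells (ES-2), melanoma cells (MV3) and pancreatic cancer cells (PANC-1) were transfected with a control siRNA (siC) or with siRNAs against IGF2BP1 (siI1), and RNA was taken at 72 h, or at 96 h in PANC-1. With 3 libraries per group there were 24 libraries in 8 groups, all of transfected cells of established lines. Levels are FPKM, reads scaled to gene length and library size, and log2 fold changes compare siI1 with siC on the scale of log2(FPKM + 0.5), which understates the change of low transcripts.

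p53 is a transcription factor that accumulates after DNA damage and other stress, binds response elements in or near its target genes, and switches on cell cycle arrest, DNA repair or apoptosis. Among its targets is MDM2, the ubiquitin ligase that marks p53 for degradation and so closes a negative feedback loop. The lines were compared among all 4 and, as a single contrast, as A549 against the mean of ES-2 and PANC-1, a choice made from background knowledge of these lines that neither the labels nor the methods give. MV3 did not enter that contrast. With 1 line against 2, the differences between these lines, the harvest time of PANC-1 included, cannot be told apart.

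Library depth differed between lines, with 3105215 to 4553326 reads on genes in A549, 6421764 to 8419467 in ES-2, 15572492 to 20082702 in MV3 and 6532175 to 8472851 in PANC-1, so that a given FPKM rests on the fewest reads in A549. IGF2BP1 itself fell in every line, with log2 fold changes of -1.32 in A549, -1.55 in ES-2, -1.52 in MV3 and -1.83 in PANC-1, and its siC and siI1 libraries did not overlap. Of 6 epithelial markers (EPCAM, CDH1 and the keratin genes KRT7, KRT8, KRT18 and KRT19), the 4 keratins were high in A549 siC (117 to 512 FPKM) and 3 of them in PANC-1 siC (201 to 717 FPKM), while EPCAM had 1.17 and 3.59 FPKM and CDH1 18.4 and 4.55. After knockdown 5 of the 6 fell in A549, where their summed level went from 1144 to 1249 FPKM in siC to 526 to 557 in siI1. Of 3 tested in ES-2 2 rose (sum 151 to 167 FPKM in siC, 194 to 221 in siI1). In MV3 1 of 3 rose, and the sums overlapped (22.7 to 24.3 and 20.6 to 23.7). Of 6 in PANC-1 2 fell and 2 rose (1342 to 1765 and 2061 to 2214). Of all genes tested, 13.8% changed in A549, 23.5% in ES-2, 35.7% in MV3 and 24.8% in PANC-1 (limma adjusted p under 0.05). The fibroblast collagen gene COL1A1 rose from 3.59 to 21.1 FPKM in ES-2 and from 1.23 to 5.13 in MV3 (means, n = 3). The part of these changes in those of the p53 target genes was not tested. The lung markers NKX2-1, SFTPB and SFTPC were listed at 0 in the siC libraries of A549, as were the melanocyte markers SOX10, TYR and S100B in those of MV3 and the Mullerian marker MUC16 in those of ES-2. The T cell marker CD3E was listed at 0 in the siC libraries of all lines. In bulk RNA, fewer cells with a transcript and less of it per cell cannot be told apart.

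In the control libraries the p53 target genes stood highest in A549. For 22 of the 29 genes, every A549 siC library lay above every siC library of the other 3 lines, against a background of 19.0% of 21653 genes. In ES-2 none of the genes had this position (background 13.0%), in MV3 there were 2 (12.1%) and in PANC-1 3, GADD45A, PERP and GDF15 (9.46%). The 4 tables were scaled separately, so these levels are a description without a test. Expressed relative to the median protein-coding gene of the same line, the count in A549 was again 22, with a background of 16.9%.

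CDKN1A, which encodes the cyclin-dependent kinase inhibitor p21, had 97.9, 92.03 and 94.6 FPKM in the A549 siC libraries, against 2.55, 2.75 and 2.77 in ES-2, 2.09, 2.57 and 2.47 in MV3 and 10.5, 13.2 and 9.72 in PANC-1. Its place among the tested protein-coding genes of the same line moved from the 97.7 percentile in A549 to the 19.8 percentile in MV3. MDM2 had a mean of 26.9 ± 1.05 FPKM in A549 and 4.95 ± 0.217, 3.40 ± 0.130 and 7.34 ± 0.379 in ES-2, MV3 and PANC-1 (SD, n = 3 each). The widest gaps were at BTG2, an antiproliferative gene of the BTG/TOB family, and at PHLDA3, which encodes an inhibitor of AKT. BTG2 stood at 13.2, 12.2 and 11.9968 FPKM in A549, was listed at 0 in all 3 ES-2 siC libraries and did not exceed 0.216 FPKM in the other 2 lines. PHLDA3 had 37.8 ± 0.966 FPKM in A549, 0.697 ± 0.0686 in ES-2, 1.20 ± 0.0380 in MV3 and 2.40 ± 0.451 in PANC-1 (SD, n = 3 each).

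The 7 exceptions were CCNG1, CCNG2, GADD45A, PLK3, PERP, POLH and GDF15. CCNG1 (cyclin G1) had similar levels throughout, from 32.7 ± 1.64 FPKM in MV3 to 57.8 ± 4.20 in ES-2 (SD, n = 3 each), and its A549 and ES-2 libraries overlapped. PERP, a desmosomal and apoptotic membrane protein, reached 197 ± 7.28 FPKM in PANC-1 against 44.8 ± 3.71 in A549 (SD, n = 3 each). GDF15, a secreted stress cytokine, was also highest in PANC-1, at 39.4, 45.4 and 36.0046 FPKM against 17.98, 19.02 and 22.1 in A549, and had no more than 0.219 FPKM in any siC library of ES-2 or MV3. Related genes did not share a pattern: the A549 libraries of PLK2 (polo-like kinase 2) stood above those of all other lines, while those of PLK3 overlapped with ES-2.

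**Figure D1:**
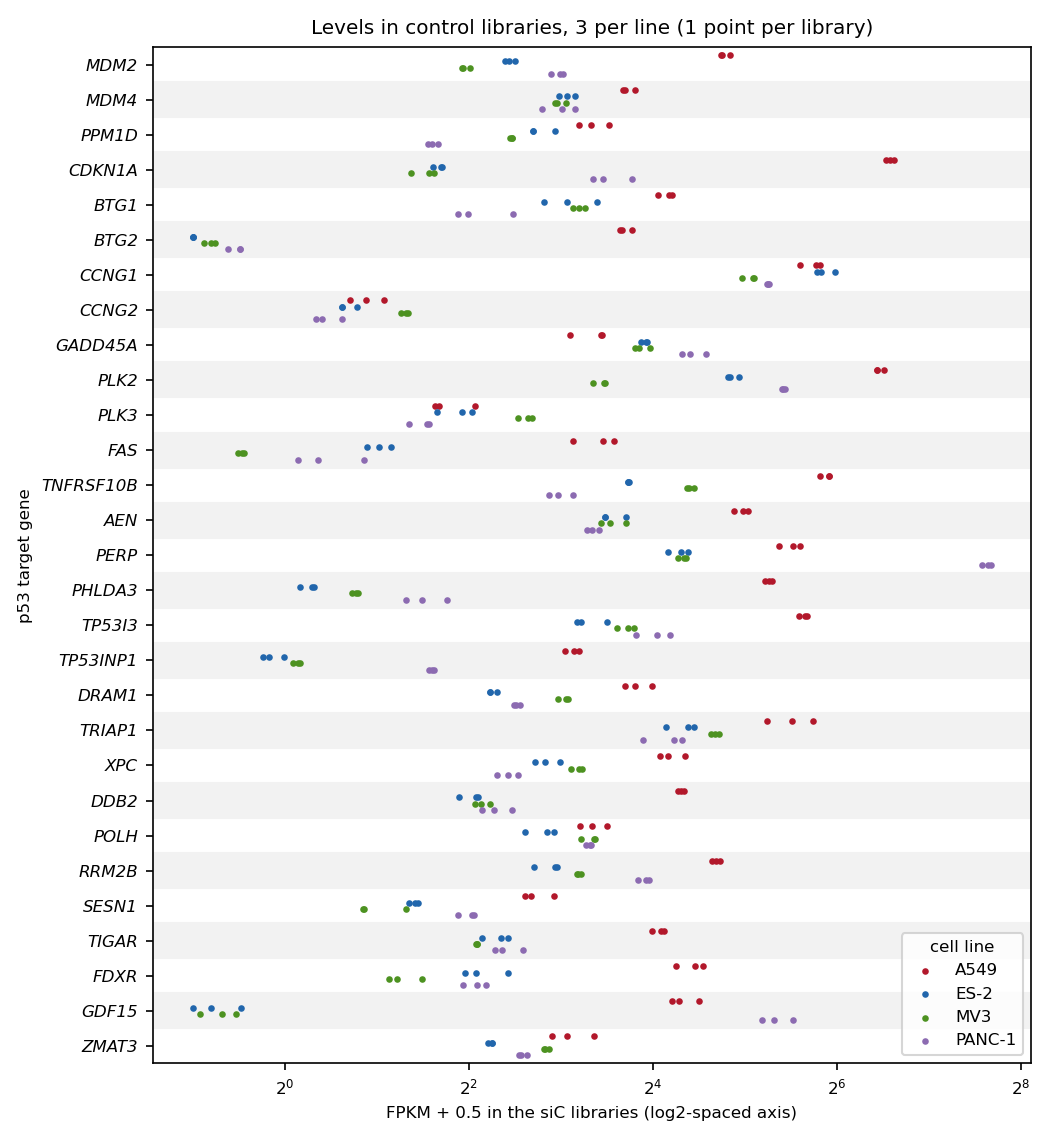
FPKM + 0.5 (log2-spaced axis) of the 29 p53 target genes in the 12 siC libraries, 1 point per library, 3 per cell line. For 22 genes all A549 points lie to the right of those of the other lines, while GADD45A, PERP and GDF15 are highest in PANC-1.

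Sequence around the start of the genes was examined for the element that p53 binds. Because the genes were chosen as p53 targets, such elements were likely in advance, and their share is a description without a test. The p53 response element consensus, 20 bases made of a pair of 10-base half-sites without a spacer, was searched in the 5000 bases around the start of each canonical transcript (GENCODE, hg38). The consensus reads the same on both strands, and no other motif was searched. With up to 2 mismatches it was found at 16 of the 29 genes (55.2%), against 11.7% of the 20044 windows of protein-coding genes. With up to 1 mismatch it was found at 6 (20.7%), against 0.948%. A match describes the sequence and does not show binding, and elements with a spacer or farther away were not searched. Shown are 5 of the matches with up to 1 mismatch, and 1 match each of CDKN1A, MDM2 and TP53I3, whose responses are described in full. They read as follows, 5′ to 3′ on the strand of the gene, with the 4 central bases of each half-site in capitals.
PLK2: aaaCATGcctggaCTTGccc
ZMAT3: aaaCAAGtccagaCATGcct
GADD45A: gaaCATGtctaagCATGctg
CCNG1: gcaCAAGcccaggCTAGtcc
DDB2: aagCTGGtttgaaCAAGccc
CDKN1A: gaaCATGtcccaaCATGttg
MDM2: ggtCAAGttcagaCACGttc
TP53I3: ataCATCctcagaCATGttt

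PLK2 (chr5:58462274-58462293, minus strand, upstream of the gene) and ZMAT3 (chr3:179070188-179070207, minus strand, intron 1) held an exact match, with 0 mismatches. GADD45A (chr1:67686775-67686794, plus strand, intron 3), CCNG1 (chr5:163437926-163437945, plus strand, intron 1) and DDB2 (chr11:47214969-47214988, plus strand, across the start of exon 1) differed from the consensus at 1 base, as did a match in intron 1 of RRM2B. CDKN1A (chr6:36676449-36676468, plus strand), upstream of the canonical start, and MDM2 (chr12:68808923-68808942, plus strand), in intron 1, differed at 2. TP53I3 (chr2:24086781-24086800, minus strand), upstream of the gene, also differed at 2. CDKN1A had a further match with 2 mismatches, upstream at chr6:36677331-36677350, and CCNG1 another in intron 2. The sequences of these are not shown.

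**Figure D2:**
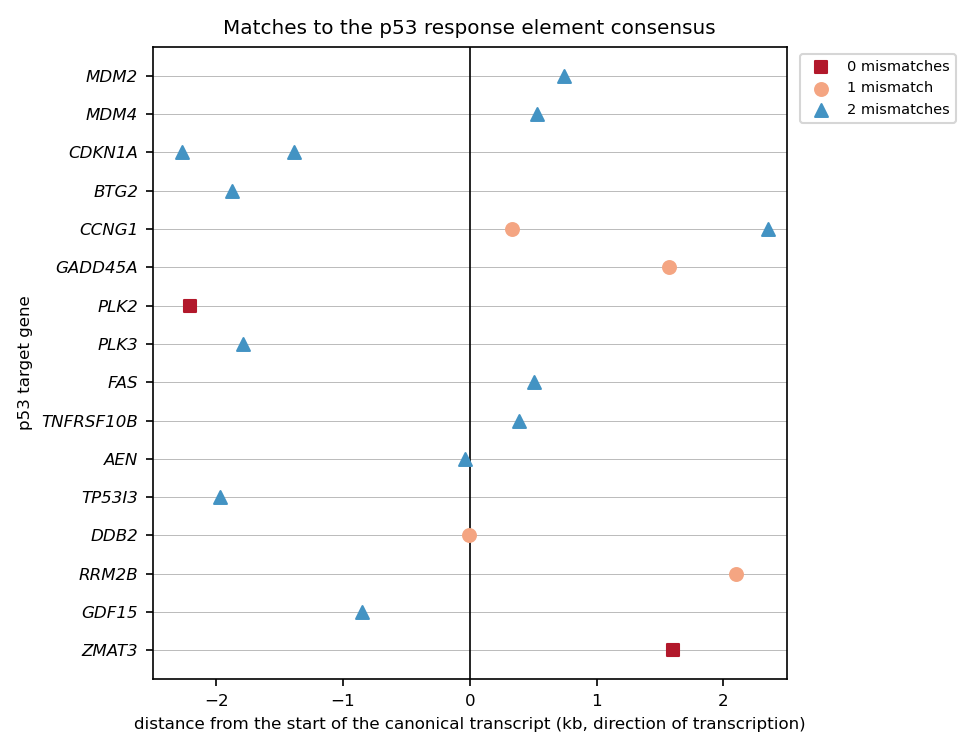
Matches to the p53 response element consensus with up to 2 mismatches at 16 of the 29 genes, by distance (kb) from the start of the canonical transcript in the direction of transcription. Only PLK2 and ZMAT3 hold a match with 0 mismatches, PLK2 upstream and ZMAT3 downstream of the start.

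Upon IGF2BP1 knockdown the p53 target genes moved in both directions in each line. In A549 all 29 were tested, 6 fell and 3 rose, where 7.83% of all tested genes fell and 5.93% rose. In ES-2 27 were tested, and 6 fell (background 13.0%) and 6 rose (10.5%). Among the 26 tested in MV3, 9 fell (19.5%) and 8 rose (16.3%). Among the 28 tested in PANC-1, 4 fell (13.4%) and 6 rose (11.3%). As shares of the genes tested, 31% were called in A549 against 13.8% of all genes, 44.4% in ES-2 against 23.5%, 65.4% in MV3 against 35.7% and 35.7% in PANC-1 against 24.8%. Of the 16 genes with a response element match, 16 were tested in A549, 14 in ES-2, 13 in MV3 and 15 in PANC-1. Among these, 4 fell and 2 rose in A549, 4 and 4 in ES-2, 5 and 4 in MV3 and 2 and 4 in PANC-1. The 13 genes without a match were tested in every line, and 2 fell and 1 rose in A549, 2 and 2 in ES-2, 4 and 4 in MV3 and 2 and 2 in PANC-1. The shares of all genes just given are the background of both counts. Over all members tested, the median log2 fold change was -0.16 in A549, 0.05 in ES-2, -0.04 in MV3 and 0.01 in PANC-1, beside -0.01, -0.02, 0.01 and -0.04 for all genes tested. The median size of the change, without its sign, was 0.234, 0.219, 0.213 and 0.173 in the same order, beside 0.261, 0.244, 0.216 and 0.277 for all genes. The larger shares of calls thus did not come with larger median changes. Genes were called by limma (two-sided) at an adjusted p under 0.05, after Benjamini-Hochberg correction across the genes of each line.

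These splits depend on the scaling in PANC-1. When each library was rescaled to the same sum of FPKM, the median log2 fold change of all PANC-1 genes became -0.68, 20 of the p53 target genes fell (background 54.6%) and 0 rose (0.591%), so directions in PANC-1 are relative to its other genes. The same rescaling gave 6 lower and 1 higher in A549 (backgrounds 7.84% and 4.11%), and 3 lower and 5 higher in ES-2 (8.38% and 10.5%). In A549, the line of lowest depth, limma voom on the recovered reads gave 12 lower (12.7%) and 4 higher (9.98%). It added AEN, BTG1, POLH, TIGAR, TNFRSF10B and TP53INP1 to the genes that fell and PERP to those that rose. Counts with 1 library left out were 3 to 5 lower and 1 to 2 higher in A549, 2 to 5 and 4 to 5 in ES-2, 5 to 8 and 5 to 9 in MV3 and 2 to 3 and 4 to 6 in PANC-1. The lowest of these arose in A549 without siC 1 or siC 3 (3 lower) and without siC 3, siI1 1 or siI1 2 (1 higher). In ES-2 they arose without siC 3, siI1 2 or siI1 3 (2 lower), and without siC 2 or siI1 1 there were 3. In MV3 they arose without siC 1 (5 lower) and siC 2 (5 higher), and in PANC-1 without siC 1 or siI1 2 (2 lower).

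**Figure D3:**
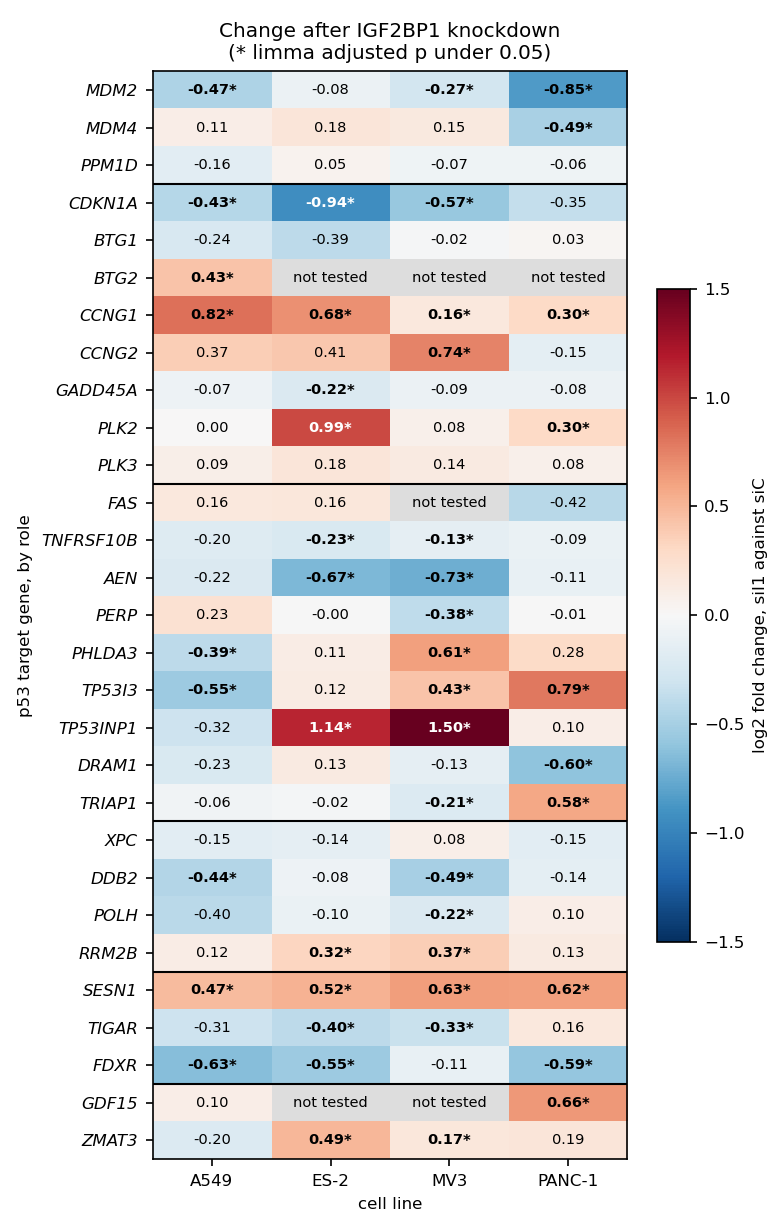
Log2 fold change (siI1 against siC) of the 29 p53 target genes, in rows grouped by role, in the 4 cell lines; an asterisk marks a limma adjusted p under 0.05. CCNG1 and SESN1 are the rows marked as higher in all 4 lines; in PANC-1 the direction of CCNG1, SESN1, PLK2, TRIAP1 and GDF15 turns when libraries are rescaled to the same sum.

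Of the feedback regulators, MDM2 fell in 3 lines, MDM4 in 1 and PPM1D in none. MDM2 (chr12:68808177-68845544, plus strand) had 26.2, 28.1 and 26.5 FPKM in siC and 20.1, 19.4 and 18.5 in siI1 in A549. The groups did not overlap, and the fold change came to -0.47 ± 0.06 (SE) on the log2 scale (limma adjusted p 0.00516). In PANC-1 it had 6.91, 7.63 and 7.47 FPKM in siC and 3.73, 3.82 and 3.99971 in siI1. This was its largest fall, -0.85 ± 0.07 (SE) (limma adjusted p 0.00129), with all siI1 libraries below all siC libraries. MV3 gave a smaller difference, with 3.55, 3.31 and 3.34 FPKM in siC and 2.61, 2.79 and 2.80 in siI1, a log2 fold change of -0.27 ± 0.06 (SE) (limma adjusted p 0.0158). That call was lost without siC 1 or siI1 1 (limma adjusted p up to 0.0545). In ES-2 the groups overlapped, at 5.18, 4.93 and 4.74 FPKM in siC and 4.50, 4.85 and 4.58 in siI1, and the log2 fold change of -0.08 ± 0.07 (SE) did not pass (limma adjusted p 0.451). Of the exon bases of MDM2, 14.7% overlap other annotated genes.

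MDM4, the paralog of MDM2 that masks the transactivation domain of p53, fell in PANC-1 by 0.49 on the log2 scale, from 7.55, 6.43 and 8.37 FPKM in siC to 5.09, 4.98 and 5.34 in siI1 (limma adjusted p 0.0177). The call was lost without siC 1, siI1 1 or siI1 2 (limma adjusted p up to 0.0657). In the other lines its log2 fold changes were 0.11 (A549), 0.18 (ES-2) and 0.15 (MV3), and none passed. This makes PANC-1 the line where both MDM2 and MDM4 were called. With limma voom on the recovered reads MDM4 was also called in MV3, as higher (0.16, adjusted p 0.0120). PPM1D, the phosphatase WIP1 that reverses p53 activation, lay between -0.16 and 0.05 in the 4 lines and was called in none.

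CDKN1A fell in 3 lines, and in PANC-1 its call depended on the fit. In A549 it had 97.9, 92.03 and 94.6 FPKM in siC and 70.5, 73.8 and 66.99 in siI1, a log2 fold change of -0.43 ± 0.05 (SE) (limma adjusted p 0.00495). In ES-2 it had 2.55, 2.75 and 2.77 FPKM in siC and 1.42, 1.18 and 0.931 in siI1. That is -0.94 ± 0.14 (SE) on the log2 scale (limma adjusted p 0.00581), its largest fall, from between 24 and 61 reads per library. In MV3 it had 2.09, 2.57 and 2.47 FPKM in siC and 1.40, 1.34 and 1.55 in siI1, a log2 fold change of -0.57 ± 0.10 (SE) (limma adjusted p 0.00582). In PANC-1, with 10.5, 13.2 and 9.72 FPKM in siC and 8.34, 9.59 and 7.75 in siI1, the log2 fold change of -0.35 ± 0.13 (SE) did not pass (limma adjusted p 0.101). It was called lower there by limma voom on the recovered reads (log2 fold change -0.38 ± 0.13 (SE), adjusted p 0.0342) and with the same sum of FPKM (log2 fold change -1.07 ± 0.14 (SE), adjusted p 0.00104), the latter value lying 0.39 below the median of all PANC-1 genes under that scaling. No siI1 library reached a siC library of its own line in any of the 4 lines, although in PANC-1 the highest siI1 and the lowest siC value nearly touched. The A549 siI1 libraries still held far more CDKN1A than the siC libraries of the other lines.

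CCNG1, a p53-induced cyclin that recruits the phosphatase PP2A to MDM2, rose in all 4 lines. It had 55.7, 54.1 and 47.8 FPKM in siC and 95.2, 88.9 and 94.9 in siI1 in A549, 0.82 ± 0.07 (SE) on the log2 scale (limma adjusted p 0.00165). In ES-2 its levels were 62.5, 54.4 and 56.4 FPKM in siC and 88.6, 92.8 and 97.03 in siI1, a log2 fold change of 0.68 ± 0.06 (SE) (limma adjusted p 0.00115). No overlap was seen in either line. PANC-1 had 37.7, 37.6 and 37.2 FPKM in siC and 46.01, 46.2 and 47.1 in siI1, 0.30 ± 0.04 (SE) (limma adjusted p 0.00490), and MV3 33.7, 33.6 and 30.8 FPKM in siC and 37.1, 35.6 and 37.1 in siI1, 0.16 ± 0.04 (SE) (limma adjusted p 0.0311). The MV3 call was lost without siC 2, siI1 1 or siI1 3 (limma adjusted p up to 0.0963). With the same sum of FPKM the PANC-1 value turned to -0.44 and was called lower (limma adjusted p 0.0441). That value is 0.24 above the median of all PANC-1 genes under that scaling. Its paralog CCNG2, which is induced by FOXO factors as well, rose in MV3, from 2.001, 2.04 and 1.91 FPKM to 3.61, 3.71 and 3.63 (log2 fold change 0.74 ± 0.06 (SE), limma adjusted p 0.000387). CCNG2 did not pass in A549 (0.37), ES-2 (0.41) or PANC-1 (-0.15), but limma voom on the recovered reads called it higher in ES-2 (0.56, adjusted p 0.00883).

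PLK2, a stress-responsive polo-like kinase, rose by 0.99 on the log2 scale in ES-2, where it had 28.02, 27.7 and 30.1 FPKM in siC and 57.9, 56.8 and 57.4 in siI1 (SE 0.05, limma adjusted p 0.000116). In PANC-1 it had 42.2, 42.9 and 41.96 FPKM in siC and 50.1, 53.8 and 52.6 in siI1, a log2 fold change of 0.30 ± 0.05 (SE) (limma adjusted p 0.00785). The same-sum scaling turned this to -0.45, called lower (limma adjusted p 0.0355), or 0.23 above the median of all genes. The A549 values, 85.9, 90.6 and 86.02 FPKM in siC and 86.8, 89.2 and 87.2 in siI1, overlapped and gave 0.004 ± 0.04 (SE), and those of MV3 gave 0.08. PLK3 was called in no line, with log2 fold changes from 0.08 to 0.18. BTG2 could be tested only in A549, since it stayed under the filter of 0.5 FPKM elsewhere, and rose there from 13.2, 12.2 and 11.9968 to 17.2, 18.2 and 15.5 FPKM (log2 fold change 0.43 ± 0.08 (SE), limma adjusted p 0.0195). The call was lost without siC 2, siC 3, siI1 1 or siI1 2 (limma adjusted p up to 0.0672). BTG1, its paralog, was called in no line (-0.24, -0.39, -0.02 and 0.03 in A549, ES-2, MV3 and PANC-1). With limma voom on the recovered reads it was called lower in A549 (adjusted p 0.0386) and ES-2 (adjusted p 0.0108). GADD45A, which encodes a stress sensor that binds PCNA and p21, fell in ES-2 by 0.22 (limma adjusted p 0.0175), a call lost without siC 2, siC 3, siI1 1, siI1 2 or siI1 3 (limma adjusted p up to 0.0578).

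**Figure D4:**
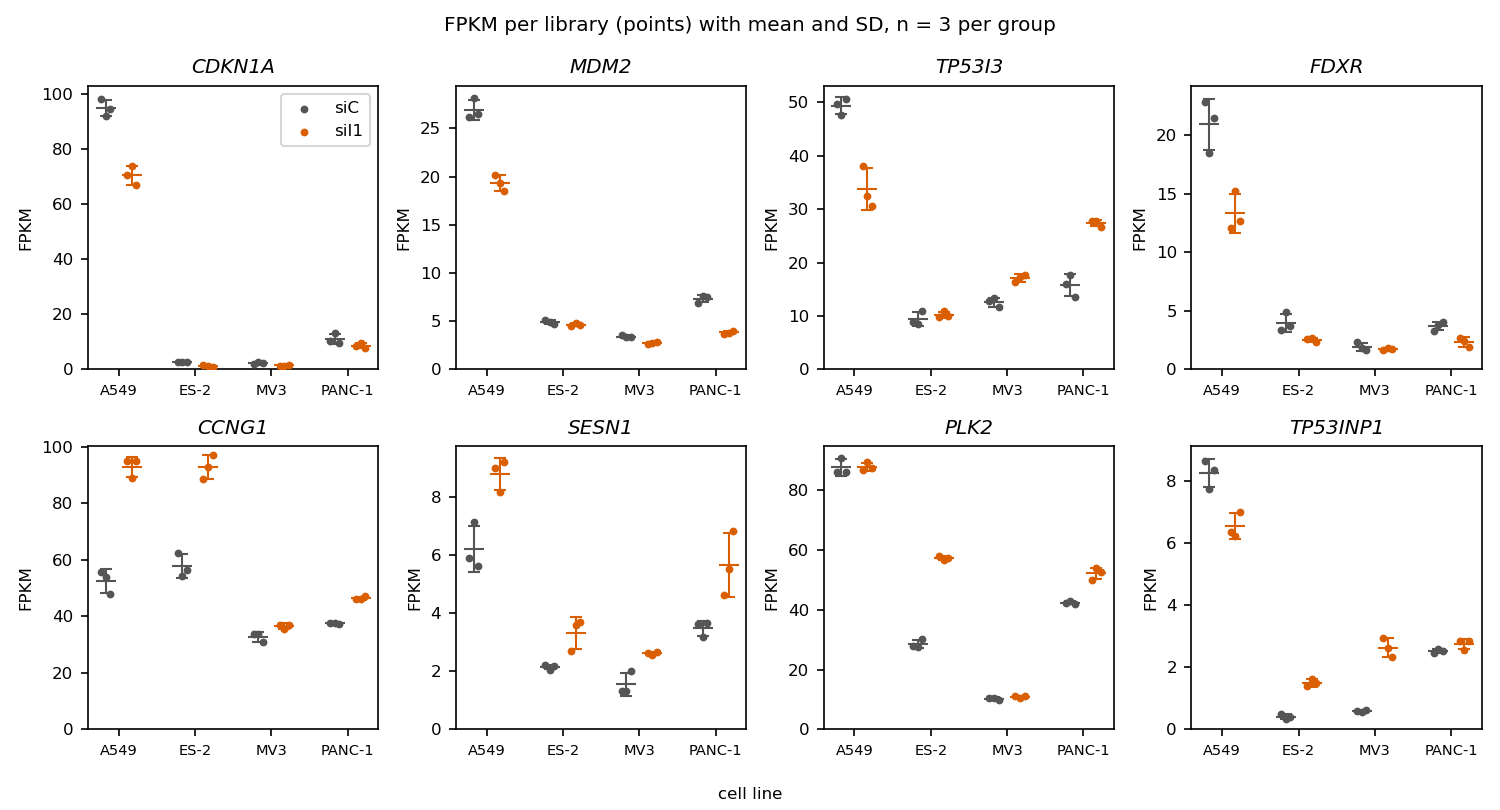
FPKM of 8 p53 target genes in every library (points; siC grey, siI1 orange) with mean and SD, n = 3 per group, in the 4 cell lines on linear axes. CDKN1A and MDM2 are lower in the siI1 libraries of A549 while CCNG1 and SESN1 are higher, and TP53I3 is lower in A549 and higher in PANC-1; the direction in PANC-1 turns for CCNG1, SESN1 and PLK2, and TP53I3 no longer passes there, when libraries are rescaled to the same sum.

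In the limma fit to the deposited values, the members called in opposite directions in different lines were all cell death and autophagy genes. With limma voom on the recovered reads MDM4 was called in both directions too, lower in PANC-1 (-0.53, adjusted p 0.000528) and higher in MV3 (0.16, adjusted p 0.0120). In the fit to the deposited values TP53I3 (PIG3), an NADPH quinone oxidoreductase linked to reactive oxygen species, fell in A549. There it had 49.7, 47.6 and 50.7 FPKM in siC and 38.2, 32.5 and 30.6 in siI1 (log2 fold change -0.55 ± 0.09 (SE), limma adjusted p 0.0114). It rose in PANC-1, with 15.98, 17.7 and 13.6 FPKM in siC and 27.8, 27.8 and 26.7 in siI1 (log2 fold change 0.79 ± 0.10 (SE), limma adjusted p 0.00308). It also rose in MV3, by 0.43 (limma adjusted p 0.00228), and in ES-2 the value was 0.12 (limma adjusted p 0.438). Groups did not overlap in A549, MV3 or PANC-1. With the same sum of FPKM the PANC-1 value was 0.05 (limma adjusted p 0.763), or 0.73 above the median of all PANC-1 genes.

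PHLDA3 likewise fell in A549, from 38.7, 36.8 and 37.9 to 30.4, 29.9 and 25.8 FPKM (log2 fold change -0.39 ± 0.07 (SE), limma adjusted p 0.0192), a call lost without siC 1 or siC 3 (limma adjusted p up to 0.0720). In MV3 it rose from 1.16, 1.24 and 1.21 to 2.08, 2.15 and 2.08 FPKM (log2 fold change 0.61 ± 0.08 (SE), limma adjusted p 0.00183). The MV3 level after the rise was still far below that of any A549 library. Of its exon bases, 18.4% overlap another annotated gene. TRIAP1, a small mitochondrial inhibitor of apoptosis, rose in PANC-1, where it had 18.2, 19.4 and 14.4 FPKM in siC and 29.01, 25.5 and 23.6 in siI1 (log2 fold change 0.58 ± 0.13 (SE), limma adjusted p 0.0215), and fell in MV3 by 0.21 (limma adjusted p 0.0215). The PANC-1 call was lost without siC 1, siI1 1 or siI1 2 (limma adjusted p up to 0.0690) and became -0.16 with the same sum of FPKM, 0.53 above the median of all genes. The MV3 call was lost without siC 1, siC 2, siI1 1 or siI1 3 (limma adjusted p up to 0.0729).

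TP53INP1, a cofactor that promotes p53-dependent apoptosis and autophagy, gave the largest log2 fold changes of the 29 genes. In MV3 it had 0.609, 0.562 and 0.624 FPKM in siC and 2.93, 2.62 and 2.32 in siI1, a log2 fold change of 1.504 ± 0.11 (SE) (limma adjusted p 0.000276). In ES-2 it had 0.494, 0.349 and 0.391 FPKM in siC and 1.39, 1.64 and 1.48 in siI1, 1.14 ± 0.17 (SE) (limma adjusted p 0.00576), from 13 to 71 reads per library. These rises started from the lowest control levels of the gene, and A549, where it was most abundant, had 8.64, 7.75 and 8.36 FPKM in siC and 6.35, 6.24 and 7.01 in siI1, a log2 fold change of -0.32 ± 0.08 (SE) that did not pass (limma adjusted p 0.0591). PANC-1 gave 0.10 (limma adjusted p 0.478).

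AEN, an apoptosis-enhancing nuclease, fell in ES-2 and MV3. It had 10.7, 12.6 and 10.7 FPKM in siC and 7.24, 5.97 and 7.53 in siI1 in ES-2 (log2 fold change -0.67 ± 0.11 (SE), limma adjusted p 0.00695). In MV3 it had 11.1, 12.6 and 10.3 FPKM in siC and 6.49, 6.35 and 7.04 in siI1 (log2 fold change -0.73 ± 0.08 (SE), limma adjusted p 0.00107). No siI1 library overlapped with siC in either line, and the log2 fold changes of -0.22 in A549 and -0.11 in PANC-1 did not pass. DRAM1, a lysosomal protein required for p53-induced autophagy, fell in PANC-1, from 5.38, 5.14 and 5.21 to 3.74, 3.38 and 2.79 FPKM (log2 fold change -0.60 ± 0.11 (SE), limma adjusted p 0.0107). The death receptor TNFRSF10B (DR5) fell by 0.23 in ES-2 (limma adjusted p 0.0182) and 0.13 in MV3 (limma adjusted p 0.01998). The ES-2 call was lost without siC 1, siC 3, siI1 2 or siI1 3 (limma adjusted p up to 0.0580) and the MV3 call without siC 1, siI1 1, siI1 2 or siI1 3 (limma adjusted p up to 0.0659). PERP fell in MV3, from 19.5 ± 0.653 to 14.9 ± 0.550 FPKM (SD, n = 3 each; log2 fold change -0.38 ± 0.04 (SE), limma adjusted p 0.00105). The death receptor gene FAS passed in none of the 3 lines where it was tested (0.16 in A549, 0.16 in ES-2 and -0.42 in PANC-1), and its MV3 libraries stayed under the filter.

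Of the 4 repair and nucleotide supply genes, 3 were called in MV3, 1 in A549, 1 in ES-2 and 0 in PANC-1, where 35.7%, 13.8%, 23.5% and 24.8% of all genes were called. DDB2, the damage-binding subunit that starts global genome repair of UV lesions, fell in MV3 by 0.49 (limma adjusted p 0.00378) and in A549 by 0.44 (limma adjusted p 0.0489), the latter lost without siC 1, siC 2, siC 3, siI1 2 or siI1 3 (limma adjusted p up to 0.140). POLH, the translesion polymerase eta, fell in MV3 by 0.22 (limma adjusted p 0.0240), a call lost without siC 1, siC 3, siI1 2 or siI1 3 (limma adjusted p up to 0.0766), and its A549 value of -0.40 did not pass (limma adjusted p 0.0784). RRM2B, the p53-inducible subunit of ribonucleotide reductase, rose in MV3 by 0.37 (limma adjusted p 0.000495) and in ES-2 by 0.32 (limma adjusted p 0.0361). The ES-2 call was lost without any 1 of the 6 libraries (limma adjusted p up to 0.114). XPC, which recognises helix-distorting lesions, was called in no line, between -0.15 and 0.08, and 24.6% of its exon bases overlap other genes.

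SESN1 was the other gene that rose in all 4 lines. It encodes a sestrin, which restrains mTORC1 and lowers oxidative stress. In A549 it had 5.89, 7.11 and 5.61 FPKM in siC and 8.98, 8.16 and 9.20 in siI1, and in ES-2 2.22, 2.05 and 2.17 FPKM in siC and 2.70, 3.58 and 3.68 in siI1. In MV3 it had 1.32, 1.31 and 2.002 FPKM in siC and 2.62, 2.56 and 2.68 in siI1, and in PANC-1 3.61, 3.19 and 3.65 FPKM in siC and 4.63, 5.52 and 6.83 in siI1. All siI1 libraries lay above the siC libraries of the same line. The log2 fold changes were 0.47 ± 0.11 (SE), 0.52 ± 0.13 (SE), 0.63 ± 0.14 (SE) and 0.62 ± 0.14 (SE) in this order, with limma adjusted p of 0.0376, 0.0321, 0.0157 and 0.0235. The difference among lines did not pass (limma F test, adjusted p 0.891). They were lost in A549 without siC 1, siC 3, siI1 1, siI1 2 or siI1 3 (limma adjusted p up to 0.117), in ES-2 without siC 1, siC 2, siC 3, siI1 2 or siI1 3 (limma adjusted p up to 0.106), in MV3 without siC 2 or siI1 3 (limma adjusted p up to 0.0526) and in PANC-1 without siC 1, siC 2, siC 3 or siI1 2 (limma adjusted p up to 0.0666), and the PANC-1 value became -0.06 with the same sum of FPKM, 0.62 above the median of all genes. CCNG1 and SESN1 make 2 of the 26 genes tested in all 4 lines, where 0.577% of 12816 genes rose in all 4. None of the 26 fell in all 4 lines (background 2.51%), but with limma voom or with the same sum of FPKM CDKN1A did, as its PANC-1 value then passed.

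FDXR, the ferredoxin reductase of mitochondria, fell in 3 lines. It had 22.8, 18.5 and 21.5 FPKM in siC and 12.1, 15.2 and 12.7 in siI1 in A549 (-0.63 ± 0.12 (SE), limma adjusted p 0.0180). In ES-2 it had 3.37, 4.87 and 3.74 FPKM in siC and 2.63, 2.66 and 2.34 in siI1 (-0.55 ± 0.14 (SE), limma adjusted p 0.0349), and in PANC-1 3.32, 3.75 and 4.07 FPKM in siC and 2.68, 2.40 and 1.88 in siI1 (-0.59 ± 0.14 (SE), limma adjusted p 0.0257). The groups did not overlap in these lines, while in MV3 they did, and the log2 fold change was -0.11. The calls were lost in A549 without siC 1, siC 3, siI1 1 or siI1 3 (limma adjusted p up to 0.0660), in ES-2 without siC 2, siC 3, siI1 1, siI1 2 or siI1 3 (limma adjusted p up to 0.108) and in PANC-1 without siC 1, siC 2, siC 3, siI1 2 or siI1 3 (limma adjusted p up to 0.0808). TIGAR, a fructose bisphosphatase that slows glycolysis, fell in MV3 by 0.33 (limma adjusted p 0.00757) and in ES-2 by 0.40 (limma adjusted p 0.0451), the latter lost without siC 2, siC 3, siI1 1, siI1 2 or siI1 3 (limma adjusted p up to 0.124). Other genes overlap 19.4% of its exon bases.

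GDF15 rose in PANC-1, where it had 39.4, 45.4 and 36.0046 FPKM in siC and 62.4, 63.98 and 64.1 in siI1 (log2 fold change 0.66 ± 0.09 (SE), limma adjusted p 0.00397). With the same sum of FPKM this became -0.09, 0.59 above the median of all PANC-1 genes. In A549 its groups overlapped (log2 fold change 0.10). ZMAT3, a zinc finger RNA-binding protein and regulator of splicing, rose in ES-2 from 4.28, 4.28 and 4.11 to 6.29, 6.36 and 5.82 FPKM (log2 fold change 0.49 ± 0.07 (SE), limma adjusted p 0.00394). In MV3 it rose by 0.17 (limma adjusted p 0.0211), a call lost without siC 2 or siI1 2 (limma adjusted p up to 0.0724), and in A549 it stood at -0.20 without passing.

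The response was then compared between lines in 1 fit over all 24 libraries. The knockdown effect differed among the 4 lines for 19 of the 26 genes tested in all of them, against 45.4% of 12816 genes (limma F test over the 3 differences, adjusted over all genes). Between A549 and the mean of ES-2 and PANC-1 it differed for 7 of the 26, against a background of 14.2%. One was higher in A549 (7.16% of all genes) and 6 were lower (7.06%). Over the 26 genes the median difference was -0.06 and the median size of the difference 0.206 on the log2 scale, beside 0.01 and 0.216 for all genes.

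TP53I3 and TP53INP1 differed most, in an order that depends on the pseudocount. TP53I3 had -0.55 in A549 and a mean of 0.46 in ES-2 and PANC-1, a difference of -1.001 ± 0.14 (SE, limma adjusted p 5.00e-05). The difference was -0.93 ± 0.14 for TP53INP1 (limma adjusted p 0.000158), and with a pseudocount of 0.1 FPKM TP53INP1 came first, at -1.22 against -1.02. For PLK2 the difference was -0.64 ± 0.07 (3.87e-06) and -0.59 ± 0.16 for PHLDA3 (0.0164). ZMAT3 and POLH followed, at -0.55 ± 0.11 (0.00273) and -0.40 ± 0.12 (0.0337). Within the mean, TP53INP1 had 1.14 in ES-2 and 0.10 in PANC-1, while TP53I3 had 0.12 and 0.79, so that a different line of the pair carried each difference. CCNG1 was the gene with the higher response in A549, by 0.33 ± 0.08 (limma adjusted p 0.0131). With the same sum of FPKM, which moved the median of all PANC-1 genes, the calls of PLK2 (-0.34, limma adjusted p 0.0646), PHLDA3 (-0.33, 0.160), ZMAT3 (-0.26, 0.234) and POLH (-0.11, 0.649) were lost. CCNG1 was also lost without A549 siC 3 (limma adjusted p up to 0.0577), PHLDA3 without A549 siC 1 or A549 siI1 3 (limma adjusted p up to 0.0605) and POLH without A549 siC 2, A549 siC 3, A549 siI1 1 or A549 siI1 3 (limma adjusted p up to 0.120).

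MDM2, CDKN1A, FDXR and SESN1, each called in at least 3 lines, did not pass this comparison. For MDM2 it was -0.0024, with an interval of 0.15 on either side (1.96 SE), although ES-2 and PANC-1 themselves lay far apart. For CDKN1A it was 0.22 ± 0.32, for FDXR -0.07 ± 0.39 and for SESN1 -0.09 ± 0.43 (1.96 SE each), and each of these intervals holds 0.

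**Figure D5:**
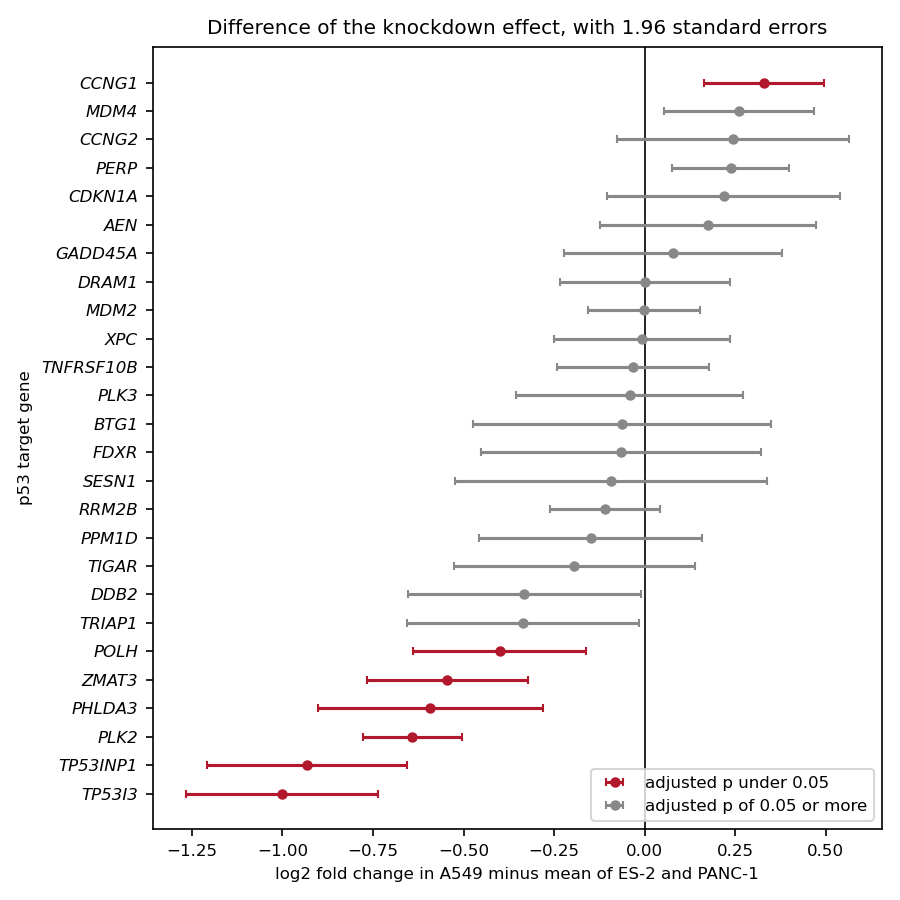
Difference in the knockdown log2 fold change, A549 minus the mean of ES-2 and PANC-1, for the 26 p53 target genes tested in all 4 lines (points) with 1.96 standard errors (bars); red marks a limma adjusted p under 0.05. TP53I3 and TP53INP1 lie farthest to the left, CCNG1 is the red point to the right of 0, and MDM2, DRAM1 and XPC lie close to 0; 4 of the red points (PLK2, PHLDA3, ZMAT3 and POLH) no longer pass when libraries are rescaled to the same sum.

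Other genes of the pathway were counted from 3 lists. Of the 29 listed regulators of p53, 26, 28, 28 and 26 were tested in A549, ES-2, MV3 and PANC-1, of which 2, 4, 5 and 4 fell and 4, 5, 5 and 3 rose. HIPK2, a kinase that phosphorylates p53 after damage, was the regulator that fell in all 4 lines, by 0.57, 0.60, 0.47 and 0.46 (limma adjusted p 0.00578, 0.0106, 0.00899 and 0.0237). The shares of all genes given above for each line are the background of these counts.

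Of 35 further p53 targets, 32, 29, 27 and 27 were tested in A549, ES-2, MV3 and PANC-1. In this order 5, 5, 6 and 4 fell, beside 7.83%, 13.0%, 19.5% and 13.4% of all tested genes. A further 1, 6, 7 and 4 rose, beside 5.93%, 10.5%, 16.3% and 11.3%. Among the 35 targets SESN2, the paralog of SESN1, went the other way. It fell by 1.25 in ES-2 (limma adjusted p 0.000745), by 0.94 in A549 (0.00338) and by 0.46 in MV3 (0.0109). Its PANC-1 value of -0.20 did not pass. THBS1, which encodes a secreted matrix protein, rose in ES-2 by 1.26 (limma adjusted p 8.85e-05) and fell in A549 by 0.88 (limma adjusted p 0.00177). The decoy receptor gene TNFRSF10C rose in ES-2 by 1.05 and in MV3 by 1.02 (limma adjusted p 0.0321 and 0.00229), and TRIM22 fell in A549 by 1.02 (limma adjusted p 0.0190).

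The third list held 15 cell cycle genes that p53 is known to repress through p21. Of these, 4 fell in A549 (7.83% of all tested genes), 7 in ES-2 (13.0%), 15 in MV3 (19.5%) and 15 in PANC-1 (13.4%). None rose in any line, where 5.93%, 10.5%, 16.3% and 11.3% of all genes did. CDK1, the mitotic kinase, and the transcription factors E2F1 and FOXM1 fell in all 4 lines, FOXM1 by 0.59, 0.58, 0.53 and 0.59 in A549, ES-2, MV3 and PANC-1. In A549, ES-2 and MV3 CDKN1A, CDK1, E2F1 and FOXM1 were thus all lower in siI1. Of the 15 listed genes, 11 in A549 and 8 in ES-2 were not called. Whether the changes of the p53 target genes and of the cell cycle genes are linked was not tested.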

How the data were processed

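Total RNA was depleted of ribosomal RNA and sequenced from biological triplicates of siC- and siI1-transfected A549, ES-2, MV3 and PANC-1 cells. The authors removed adapters (Cutadapt 1.14), mapped reads to hg38 (HISAT2 2.1.0), counted them per gene (featureCounts 1.5.3) and normalized with TMM in edgeR 3.30.3 (versions per the submitters' processing notes). The strand setting of the counting is not given in the sources used here. The authors deposited 1 table of FPKM values per line. The unit is not named there and was inferred from the values: multiplied by gene length, 100% of them were whole multiples of 1 read, within 0.01 read, for libraries of 3105215 to 20082702 reads. The tables also hold the authors' own log2 fold changes and p-values for siI1 against siC, which were not used.

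Libraries were grouped by their labels. Each line was tested with limma 3.58.1 in R 4.3.3 (lmFit, eBayes with an intensity trend, two-sided, no covariates) on log2(FPKM + 0.5), for genes whose mean over its 6 libraries reached 0.5 FPKM. Adjustment was by Benjamini-Hochberg over all genes tested, with a threshold of 0.05. Lines were compared in 1 limma fit over 24 libraries with 8 group means and library weights estimated per line, for genes with at least 0.5 FPKM in each line. limma was fitted to the values as deposited, in place of the authors' edgeR test, and limma voom on the recovered reads was an alternative. Fits were tested on simulated data.

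The members and lists were chosen with earlier results of these data known. Values per library are given for members called where the log2 fold change reached 0.5 in size, for CDKN1A and MDM2 in every line, and for members called alike in all 4 lines. Values of a few other members were added after they were seen. From the lists of other pathway genes, those called alike in all 4 lines or with a called change of at least 1 in size are named, with their values in other lines, while some genes of these lists and of the marker lists are not reported here. Of the 30 regulators listed, COP1 appears under its older symbol RFWD2, which leaves 29 genes. Replicates of a group differed by a chi-square per gene of 1.54 to 15.1 over 24 pairs, above sampling noise, and counted as separate samples. The element scan and the control levels were added after the data were seen, with positions from GENCODE on hg38. Alternatives were other pseudocounts, filters and scalings, limma voom on the recovered reads, a replicate block, a fold minimum and leaving out each library.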

Additional observations from a re-analysis of the deposited data

Results flagged for a closer look

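For 19 of the 26 p53 target genes tested in all 4 lines the knockdown effect itself differed between lines, by the limma F test over 3 differences with adjustment over all 12816 genes, where 45.4% of genes did so. The adjusted p is given behind each symbol. Among the feedback and cell cycle genes these were MDM2 (3.83e-06), MDM4 (0.00016), CDKN1A (0.029), CCNG1 (4.52e-06), CCNG2 (0.000665) and PLK2 (4.43e-09). Of the cell death and autophagy genes they were AEN (0.00258), PERP (1.7e-05), PHLDA3 (0.000228), TP53I3 (1.21e-05), TP53INP1 (1.24e-08), DRAM1 (0.000753) and TRIAP1 (0.00236). The others were DDB2 (0.0443), POLH (0.0285), RRM2B (0.0106), TIGAR (0.0438), FDXR (0.0293) and ZMAT3 (0.00139). PLK2 and TP53INP1 have the smallest p, PLK2 with log2 fold changes from 0.004 in A549 to 0.99 in ES-2, and TP53INP1 from -0.32 in A549 to 1.504 in MV3. PHLDA3, TP53I3 and TRIAP1 passed the threshold in opposite directions in different lines. The lines also differ in depth, control level of the genes and harvest time, whose part in these differences was not tested.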

How the results depend on the processing

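The direction of all 55 called values held under every alternative tried, except in PANC-1 with each library rescaled to the same sum of FPKM, where the log2 fold changes became -0.44 for CCNG1, -0.45 for PLK2, -0.16 for TRIAP1, -0.064 for SESN1 and -0.092 for GDF15. Of these, CCNG1 and PLK2 were called lower under that scaling. That scaling gave 20 lower and 0 higher p53 target genes in PANC-1, 1 higher in A549 and 3 lower in ES-2. In PANC-1 the FPKM of a library summed to 526337 to 756438 in siC and to 977547 to 1191710 in siI1, so equal sums lower siI1 values against siC. Why these sums differ was not tested, nor was the cause of the changed counts in A549 and ES-2. limma voom on the recovered reads gave 12 lower in A549, and called 4176 genes there over all. When calls also had to reach 0.5 in size on the log2 scale, the counts were 2 lower and 1 higher in A549, 3 lower in ES-2, and 2 lower and 4 higher in MV3, as fewer genes can qualify. Other pseudocounts, filters, library weights, equal medians and separate fits left the counts within 1.5 times the values reported.

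Leaving out 1 library gave 3 to 5 lower and 1 to 2 higher in A549, 2 to 5 and 4 to 5 in ES-2, 5 to 8 and 5 to 9 in MV3, and 2 to 3 and 4 to 6 in PANC-1. The genes that differed among lines numbered 16 to 19, and those that differed between A549 and the mean of ES-2 and PANC-1 numbered 5 to 8.

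Libraries were fitted without pairing by replicate number. The correlation of deviations of siC and siI1 libraries with the same number was -0.056 to 0.071, which cannot show whether such libraries were handled together. A replicate block gave 3 lower and 1 higher in A549 and 3 lower in ES-2, and left the other counts within 1.5 times. Depth limits A549 most. Low transcripts rest on few reads, such as TP53INP1 in ES-2 with 13 in its lowest library.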
